A study of Homo sapiens with 7 samples.

Results

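The genes described here encode 10 growth factor receptor tyrosine kinases, EGFR, MET, AXL, PDGFRA, PDGFRB, FGFR1, FGFR2, IGF1R, ROR2 and EPHA3. They were chosen by name, as the non-control probes that carry one of these gene names together with the 250-kb windows that hold those probes. The names were picked with earlier results of these data known. Shares among them set beside shares of all genes or windows are therefore descriptive and test nothing about the group. These genes are 10 of the 8248 genes tested. They hold 127 of the 169544 distinct probes on chromosomes 1 to 22 and X of the larger array design, and 44 of the 54807 of the smaller design. Replication timing was measured on 7 two-colour arrays, 3 of K562 (a human chronic myelogenous leukaemia line) and 4 of U2OS (a human osteosarcoma line). Neither line carried an engineered allele in the labels, and all cells received the thymidine analogue bromodeoxyuridine (BrdU), were fixed and were sorted by DNA content into cells in the first and cells in the last part of S phase. BrdU-containing DNA was precipitated and amplified, and on every array Cy3 marked the early and Cy5 the late DNA. The K562 arrays were one after a new cell sorting method, one after an old method and one labelled 44k. The U2OS arrays were 2 labelled manual and 2 labelled automated, without a statement of which step this was. The labels do not say that the arrays came from separate cultures, so p-values measure only the spread between these arrays, which may be technical. Each line is a single tumour line, and the array cannot separate the copies of a locus in cells with an abnormal chromosome number.

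Receptor tyrosine kinases span the cell membrane, bind a growth factor outside the cell and phosphorylate tyrosines inside it, which recruits adaptor proteins to the RAS and PI3-kinase pathways. Several of the 10, among them the PDGF receptors, IGF1R and AXL, are used by mesenchymal cells, from which osteosarcoma arises, while blood cells rely on relatives such as KIT, FLT3 and CSF1R. Replication timing is a property of domains: neighbouring origins fire together, gene-rich active chromatin tends to replicate early, and domains can switch between early and late when cell identity changes. No RNA or protein was measured on these arrays.

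Timing was expressed as log2(early/late), relative to the median probe of each array. A value above 0 is called early and a value below 0 late. The probes that read these loci are single DNA oligonucleotides, and for the genes on which the results turn the probe nearest the middle of the gene that both array designs share is shown, with CG dinucleotides in capitals. The positions are on hg19, and the strand is not given in the sources used here. The exon or intron under a probe was not read, because no annotation of this build was used here. The PDGFRA probe lies at chr4:55124472-55124531, the IGF1R probe at chr15:99347517-99347576, the EGFR probe at chr7:55182934-55182993, the FGFR2 probe at chr10:123297473-123297529, the ROR2 probe at chr9:94599654-94599713, the EPHA3 probe at chr3:89328061-89328120 and the MET probe at chr7:116371794-116371848.
PDGFRA: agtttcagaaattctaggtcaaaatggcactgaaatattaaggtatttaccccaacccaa
IGF1R: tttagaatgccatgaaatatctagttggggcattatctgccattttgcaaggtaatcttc
EGFR: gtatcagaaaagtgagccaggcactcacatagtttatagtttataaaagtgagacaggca
FGFR2: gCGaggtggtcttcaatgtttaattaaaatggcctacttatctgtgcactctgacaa
ROR2: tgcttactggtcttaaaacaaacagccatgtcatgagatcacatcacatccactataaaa
EPHA3: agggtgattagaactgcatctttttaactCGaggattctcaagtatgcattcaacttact
MET: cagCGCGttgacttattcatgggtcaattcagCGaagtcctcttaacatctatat

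The PDGFRA and MET oligonucleotides show what a single probe reads. The PDGFRA probe, which holds no CG, read -0.54, -0.62 and -0.46 on the K562 arrays (new sorting, old sorting, 44k). On the U2OS arrays (manual 1, manual 2, automated 1, automated 2) it read 2.26, 2.04, 2.34 and 1.63, so this oligonucleotide alone separated the lines. The MET probe, with 3 CG dinucleotides, read 2.0, 1.92 and 2.86 in K562 and 1.92, 2.08, 2.85 and 1.95 in U2OS, which is early on all 7 arrays. The EGFR probe shows the noise of a single oligonucleotide: its U2OS readings were -0.82, 0.24, 1.03 and 0.97, an order of the 4 arrays unlike that of the mean over all EGFR probes given below. Values per gene are therefore means over the gene's probes, 3 (PDGFRB) to 29 (EPHA3) of them on the larger design and 2 (AXL) to 7 (IGF1R and EPHA3) on the smaller design.

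The arrays differed in brightness. Among the member probes, 75 and 42 of 127 were well above background in both channels in K562 after the new and the old sorting, 65 and 49 on the manual U2OS arrays, and 116 and 111 on the automated U2OS arrays. On the K562 array labelled 44k only 4 of 44 were, and the scanner software replaced the late-channel signal with a surrogate for 49.8% of all its probes. After the old sorting, early-channel probes well above background were 1 of 9 for FGFR2 and 7 of 28 for IGF1R. They were 4 of 15 for EGFR, 2 of 6 for PDGFRA and 13 of 17 for ROR2. On the array labelled 44k the late-channel counts were 0 of 5 for FGFR2, 2 of 7 for IGF1R and 0 of 4 for EGFR. They were 1 of 3 for PDGFRA and 1 of 5 for ROR2. After the new sorting most probes of these genes were well above background in each channel. Across 250-kb windows the arrays correlated at r = 0.870 to 0.935 within K562, 0.932 to 0.990 within U2OS and 0.636 to 0.751 between the lines (8913 windows, which are not independent replicates). The spread over windows differed as well. Its SD was 1.81 on the K562 array after new sorting, 1.19 after old sorting and 1.17 on the array labelled 44k. In U2OS it was 1.27 to 1.43. No slide held both lines, so slide and line cannot be told apart.

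Between K562 and U2OS, 5 of the 10 receptor genes differed in timing: IGF1R, PDGFRA, EGFR and FGFR2 replicated later in K562, and ROR2 replicated earlier. The call required a Benjamini-Hochberg adjusted p below 0.05 over all genes tested and at least 1 log2 unit between the lines in limma. By that rule 21.0% of all genes tested were called, 10.8% as later and 10.2% as earlier in K562. MET, AXL, PDGFRB and FGFR1 were early on all 7 arrays and did not pass, and EPHA3, late on all 7 arrays, did not pass either. The arrays of the 2 lines did not overlap for the same 5 called genes, as for 31.9% of all genes (17.3% lower and 14.6% higher in K562). The median difference (K562 minus U2OS) was -0.23 over the 10 receptor genes and -0.14 over all genes tested. With normexp background correction (offset 50 or 0) or loess normalization 4 members were called, all of them later in K562, and ROR2 was lost. Without background correction 2 were called, and EGFR (-0.79, adjusted p = 0.0678), FGFR2 (-0.89) and ROR2 (0.66) were lost, the last of them at an adjusted p of 0.0821 and FGFR2 for its size alone (adjusted p = 0.0238). Without the K562 array after new sorting 4 members were called, 2 as earlier and 2 as later in K562. EGFR and FGFR2 were lost there and EPHA3 was added as earlier, so the lean toward later calls depended on that array.

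**Figure D1:**
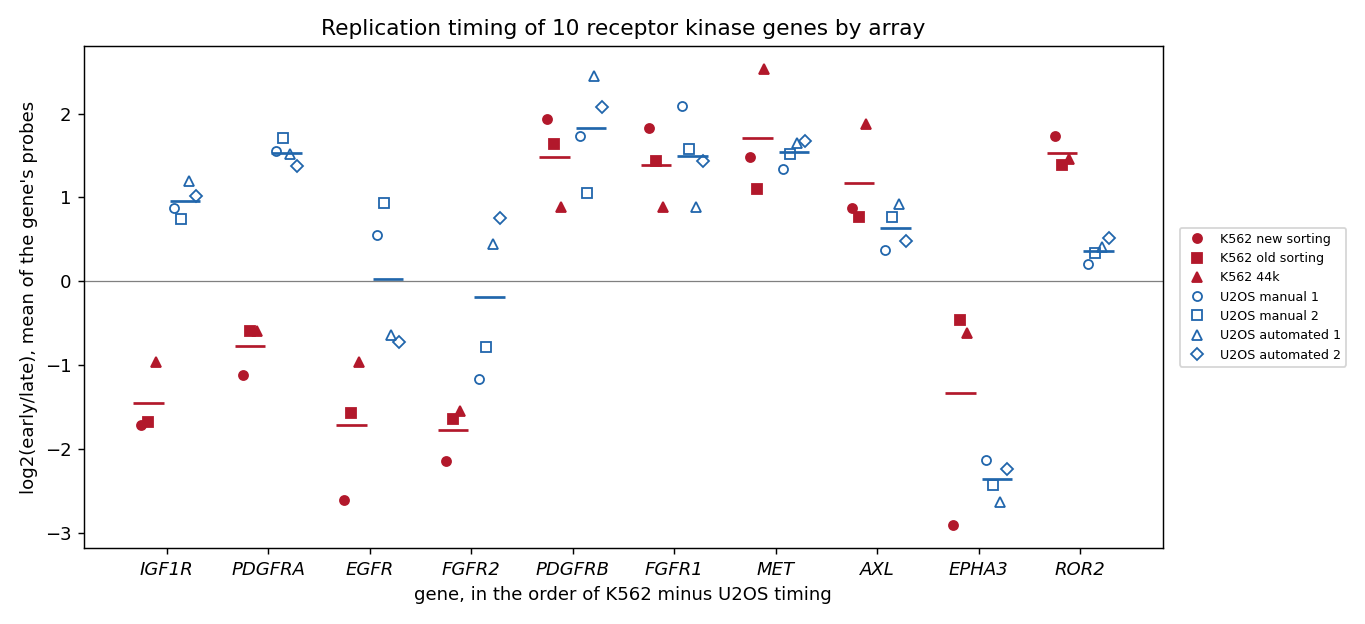
Replication timing of the 10 receptor kinase genes on each array, as log2(early/late) relative to the array median (vertical axis), with genes in the order of the K562 minus U2OS difference; points are arrays (3 of K562 filled, 4 of U2OS open) and bars are the mean of each line. The K562 points of IGF1R and PDGFRA all lie below 0 and the U2OS points all above it, while the U2OS points of EGFR and FGFR2 lie on both sides of 0.

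PDGFRA and IGF1R were late in K562 and early in U2OS on every array. PDGFRA, the receptor for platelet-derived growth factor chains A, B and C (probes at chr4:55095409-55164299), read -1.12, -0.59 and -0.59 on the 3 K562 arrays. In U2OS it read 1.55, 1.70, 1.51 and 1.37. The lowest U2OS value was far above the highest K562 value, and the spread within each line was small. The difference was -2.30 ± 0.27 (SE; K562 -0.77 ± 0.30, SD, n = 3; U2OS 1.54 ± 0.14, SD, n = 4), with a limma adjusted p of 5.69e-05. All 6 PDGFRA probes were lower in K562 with no overlap of the 6 larger arrays, against 17.5% of all probes. Ranked among all genes tested, PDGFRA stood at percentile 21.7 in K562 and 88.3 in U2OS.

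IGF1R, the receptor for insulin-like growth factors (probes at chr15:99194437-99504629), read -1.71, -1.67 and -0.96 in K562. In U2OS it read 0.88, 0.74, 1.19 and 1.02. Every K562 array was late and every U2OS array early, and the array labelled 44k was the K562 array nearest to 0. The difference was -2.40 ± 0.29 (SE), with a limma adjusted p of 6.45e-05. Of its 28 probes 27 were lower in K562, and 26 of them did not overlap between the lines on the 6 larger arrays, against 17.5% of all probes. All 3 windows that hold IGF1R probes were called, with differences of -2.79, -2.55 and -1.91. IGF1R and PDGFRA stayed called under every alternative in which they were tested, from -2.65 to -1.24 for IGF1R and from -2.40 to -1.72 for PDGFRA.

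EGFR and FGFR2 were late on all K562 arrays, but in U2OS their timing went with the handling label. EGFR, the receptor for epidermal growth factor (probes at chr7:55109982-55274871), read -2.61, -1.57 and -0.97 in K562. In U2OS it read 0.56 (manual 1), 0.93 (manual 2), -0.64 (automated 1) and -0.73 (automated 2). The automated U2OS arrays were thus late and lay close to the K562 array labelled 44k. The difference between the lines was -1.75 ± 0.47 (SE), with a limma adjusted p of 0.0146. All 15 EGFR probes were lower in K562, 12 of them without overlap, against 17.5% of all probes. Against the manual arrays alone the difference was -2.46 (adjusted p = 0.00400), and against the automated arrays alone it was -1.03 (adjusted p = 0.143). Without the K562 array after new sorting, which held the lowest value, EGFR was no longer called (-1.30, adjusted p = 0.0668).

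FGFR2, a receptor for fibroblast growth factors (probes at chr10:123241651-123353262), read -2.14, -1.64 and -1.54 in K562. In U2OS it read -1.17 (manual 1), -0.79 (manual 2), 0.45 (automated 1) and 0.76 (automated 2). Here the manual arrays were the late ones, the opposite order to EGFR. The difference was -1.59 ± 0.43 (SE), with a limma adjusted p of 0.0163, and all 9 probes were lower in K562, 4 of them without overlap, against 17.5% of all probes. Against the manual arrays alone it was -0.80 (adjusted p = 0.208), and against the automated arrays alone -2.38 (adjusted p = 0.00140). FGFR2 missed the call without the K562 array after new sorting (-1.41, adjusted p = 0.0597) and without the array labelled 44k (-1.71, adjusted p = 0.0535).

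The gap between automated and manual U2OS arrays was -1.43 for EGFR and 1.58 for FGFR2. Over all genes tested the median size of that gap was 0.36, and a gap at least as large was seen in 1.65% of genes for EGFR and 0.97% for FGFR2. For PDGFRA, IGF1R and ROR2 the gap was -0.19, 0.30 and 0.19, well below their difference between the lines. For PDGFRB, FGFR1 and MET the gap was 0.87, -0.68 and 0.24. These gaps were larger in size than the differences of those genes between the lines (-0.35, -0.11 and 0.16). For AXL and EPHA3 the gap was 0.13 and -0.16, below their differences of 0.54 and 1.03. The manual arrays shared a slide, so handling and slide cannot be told apart in U2OS.

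ROR2, a receptor for WNT5A that acts in skeletal development (probes at chr9:94485229-94702772), was early on all arrays and earlier in K562. It read 1.73, 1.39 and 1.45 in K562. In U2OS it read 0.21, 0.33, 0.41 and 0.51, so all K562 arrays lay above all U2OS arrays, which were near the array median. The difference was 1.16 ± 0.26 (SE), with a limma adjusted p of 0.00508. All 17 probes were higher in K562, 12 of them without overlap, against 13.8% of all probes. ROR2 stood at percentile 91.4 in K562 and 37.8 in U2OS. Its difference lay near the required size of 1: it was 0.99 with normexp without an offset (adjusted p = 0.00824), 0.97 with loess (adjusted p = 0.0612) and 0.69 with normexp and an offset of 50 (adjusted p = 0.0597).

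EPHA3, an ephrin-A receptor (probes at chr3:89162807-89530074), was the latest of the 10 in U2OS, at percentile 1.3 of all genes tested. Its U2OS values were -2.13, -2.42, -2.64 and -2.24. Its K562 values were -2.91, -0.46 and -0.62. The array after new sorting was the latest of all 7 and the other K562 arrays were the earliest, so the K562 arrays spanned those of U2OS. The array after new sorting also had the widest spread over all windows. The difference was 1.03 ± 0.48 (SE; limma adjusted p = 0.148). Without the K562 array after new sorting it was 1.81 and passed (adjusted p = 0.00122). Of its 29 probes 22 were not well above background in the early channel on any K562 array that holds them and 12 were not in the late channel, so most K562 readings of EPHA3 are ratios of dim signals.

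The remaining receptors were early in both lines. MET, the receptor for hepatocyte growth factor (probes at chr7:116319810-116436064), read 1.49, 1.1 and 2.53 in K562. In U2OS it read 1.33, 1.52, 1.65 and 1.67. The array labelled 44k was the highest of the 7 and the old-sorting array the lowest, and the difference was 0.16 ± 0.34 (SE; limma adjusted p = 0.768). AXL, the receptor for GAS6 (chr19:41729916-41762130), lay between 0.77 and 1.88 in K562 and between 0.38 and 0.92 in U2OS, with a difference of 0.54 ± 0.32 (SE; limma adjusted p = 0.254). Its highest value was that of the array labelled 44k too. On that array 0 of 5 MET probes and 0 of 2 AXL probes were well above background in the late channel. Of these probes 3 and 2 had a surrogate late signal. The late channel of that array was as dim for PDGFRB and FGFR1. For each, 0 of 3 probes were well above background and 3 had a surrogate. For those genes the array labelled 44k was the lowest K562 array (0.88 and 0.89). The part of dim late signal in these values was not tested. Without that array the difference was -0.25 for MET (limma adjusted p = 0.614) and 0.18 for AXL (limma adjusted p = 0.728).

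PDGFRB, the receptor for the B chain of platelet-derived growth factor (chr5:149501453-149534480), lay between 0.88 and 1.93 in K562 and between 1.05 and 2.45 in U2OS. Its difference was -0.35 ± 0.37 (SE; limma adjusted p = 0.539), so the paralogue of PDGFRA was early in both lines. FGFR1 (chr8:38281544-38321370) lay between 0.89 and 1.83 in K562 and between 0.88 and 2.09 in U2OS. Its difference was -0.11 ± 0.34 (SE; limma adjusted p = 0.846), while FGFR2 of the same subfamily was late in K562. For these genes the groups overlapped, and a p above the threshold does not show equal timing. In K562 the order of the means ran from MET (1.71), ROR2 (1.52), PDGFRB (1.48), FGFR1 (1.38) and AXL (1.17) to PDGFRA (-0.77), EPHA3 (-1.33), IGF1R (-1.45), EGFR (-1.72) and FGFR2 (-1.78). Within the early 5 and within the late 5, neighbours in this order differed by less than the SD of at least one of them. In U2OS the order was PDGFRB (1.83), MET (1.54), PDGFRA (1.54), FGFR1 (1.5), IGF1R (0.96), AXL (0.64), ROR2 (0.37), EGFR (0.03), FGFR2 (-0.19) and EPHA3 (-2.36). Here the steps from FGFR1 to IGF1R, IGF1R to AXL, AXL to ROR2 and FGFR2 to EPHA3 exceeded the SD of both neighbours, and the other steps did not.

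The width of the domain around each gene was taken as the run of adjacent 250-kb windows with the sign of the gene's own window. On the mean profile of each line, IGF1R lay in a late run of 4.0 Mb in K562 (chr15:97250001-101250000) and in an early run of 1.5 Mb in U2OS (chr15:99000001-100500000). The early U2OS run thus lay wholly inside the late K562 run. By array the IGF1R run was 4.0, 4.25 and 4.0 Mb in K562 and 1.25, 1.5, 1.5 and 1.5 Mb in U2OS. The 2 lines did not overlap (exact permutation test of 3 against 4 arrays, two-sided, p = 0.0286, the smallest this design can give; 10 such tests were run, one for each gene, and the p-values are unadjusted unless stated). After Benjamini-Hochberg adjustment over these 10 tests the exact permutation p for IGF1R was 0.143. Windows called as later in K562 ran without a break for 2.5 Mb around IGF1R (chr15:98750001-101250000).

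PDGFRA lay in a run of 1.0 Mb on all 7 arrays, late in K562 and early in U2OS, but the runs were offset. The mean-profile run was chr4:54750001-55750000 in K562 and chr4:54250001-55250000 in U2OS. PDGFRA therefore sat near the higher-coordinate edge of an early run in U2OS and toward the lower-coordinate edge of a late run in K562. The next window at higher coordinates had no value. The U2OS edge may thus lie up to 1 window farther out, and the K562 run bridged that window (3 of 4 windows with a value). Called windows ran for 0.5 Mb.

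Around EGFR the run was 1.75 Mb on each K562 array, all late. In U2OS it was early and 0.75 and 1.0 Mb wide on the manual arrays, and late and 2.5 Mb wide on both automated arrays (exact permutation p = 1.0 for width). The K562 run was ended on its lower-coordinate side by windows without a value, so its width is a lower bound. The late runs of the automated U2OS arrays were ended by such windows on both sides, so theirs are lower bounds too. FGFR2 lay in late runs of 1.5, 2.5 and 1.5 Mb in K562, in late runs of 1.0 Mb on both manual U2OS arrays and in early runs of 4.5 Mb on both automated ones. Called windows covered 1.5 Mb (chr10:122000001-123500000), without a break. On the other side 1 window missed the call, and the windows 0.5, 0.75 and 1.0 Mb from that of FGFR2 were again called as later in K562. The run of windows whose arrays did not overlap between the lines was 1.5 Mb as well and lay at chr10:123000001-124500000.

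ROR2 lay in an early run of 5.0, 4.5 and 4.5 Mb in K562. In U2OS the early run was 1.75 Mb on 3 arrays and 7.5 Mb on the first automated array, so the widths overlapped (exact permutation p = 0.486). On the mean profiles the runs were chr9:93750001-98500000 in K562 and chr9:94500001-96250000 in U2OS, the latter beginning inside the stretch of ROR2 probes. The ROR2 window that holds most of its probes missed the call (difference 0.90, limma adjusted p = 0.00963), and the adjoining window that holds 2 of its probes passed (1.09, adjusted p = 0.00249).

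MET lay in an early run of 1.0, 1.0 and 1.25 Mb in K562 and of 1.5 Mb on each U2OS array (exact permutation p = 0.0286). The timing of MET itself did not pass. On the mean profiles the edge at higher coordinates was shared, and the edge at lower coordinates lay 500 kb farther out in U2OS. AXL (5.0 and 4.75 Mb), PDGFRB (3.25 and 3.5 Mb) and FGFR1 (1.75 and 1.75 Mb) lay in early runs on the K562 and U2OS mean profiles, with exact permutation p-values of 0.286, 0.143 and 0.371. Windows without a value ended the AXL and PDGFRB runs at their higher-coordinate side and the FGFR1 run at its lower-coordinate side, so these widths are lower bounds. EPHA3 lay in a late run of 1.0 Mb in each, ended on both sides by windows without a value.

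**Figure D2:**
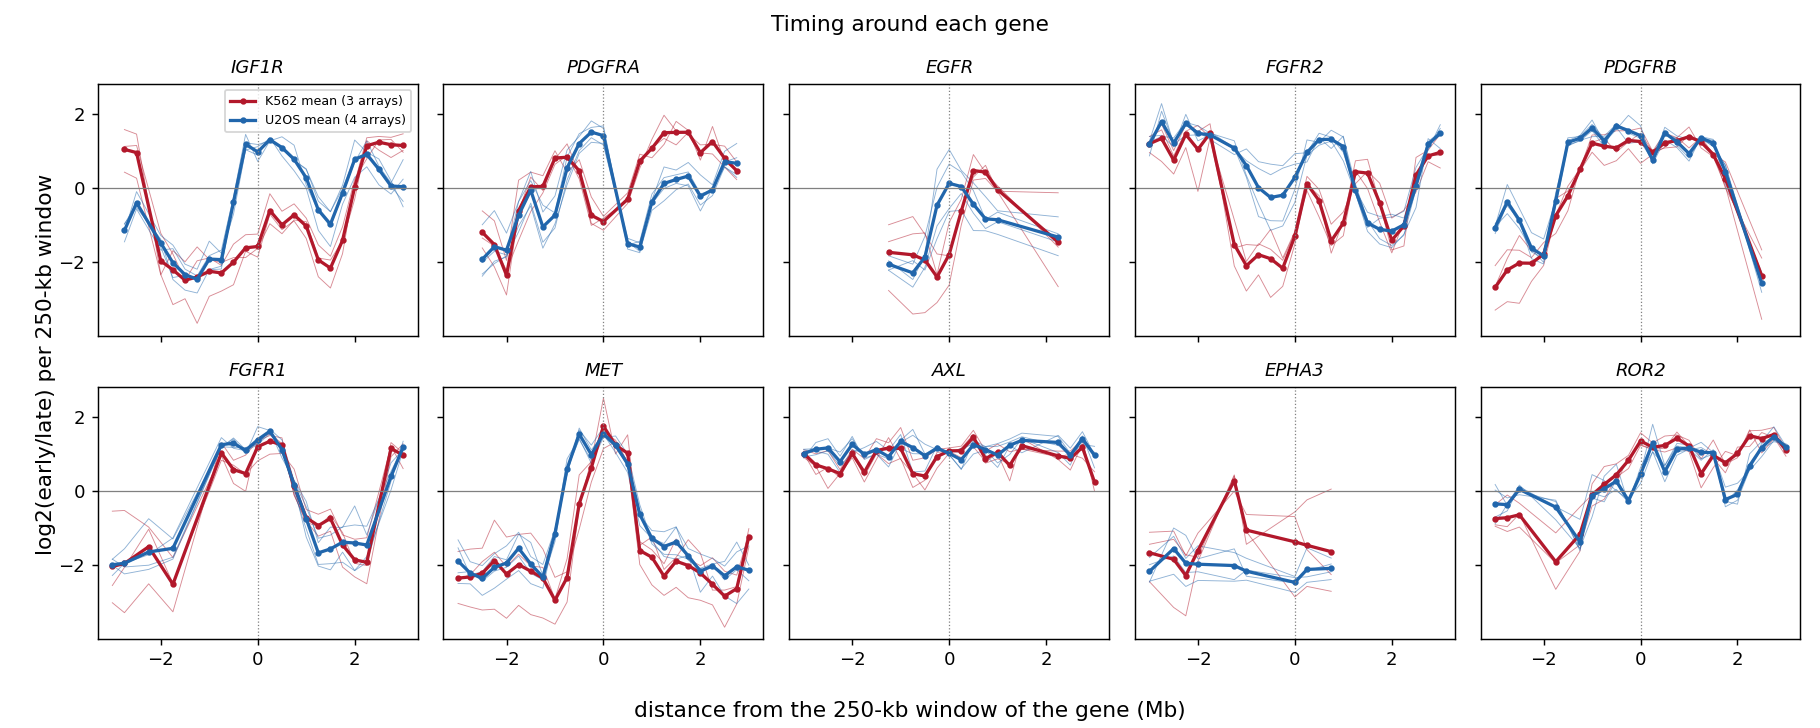
Timing along the chromosome around each of the 10 genes: log2(early/late) per 250-kb window (vertical axis) against the distance in Mb from the window of the gene (horizontal axis); thin lines are single arrays, thick lines with points the means of K562 (3 arrays) and U2OS (4 arrays), and a line crosses windows without a value. IGF1R shows an early peak in U2OS inside a late stretch of K562, PDGFRA an early peak in U2OS beside a stretch that is earlier in K562, and AXL a plateau above 0 in both lines.

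Over arrays, the mean width was larger in K562 for 4 of the 10 genes (EGFR, AXL, IGF1R and ROR2). This count was 2 with normexp and an offset of 50, without background correction, and in 100-kb windows. Among the 9 members that were early on the U2OS mean profile the median run was 1.5 Mb, and among the 5681 early genes tested it was 3.5 Mb. In K562 the medians were 3.25 Mb over 5 early members and 3.0 Mb over 5777 early genes, and 1.5 Mb over both the 5 late members and the 2432 late genes. The window of the gene had opposite signs in the 2 mean profiles for 4 of 10 members (EGFR, PDGFRA, FGFR2 and IGF1R) and for 16.64% of 8209 genes. For EGFR and FGFR2 the U2OS mean window was near 0 (0.13 and 0.29), and the manual and automated arrays lay on different sides of 0. In 100-kb windows their U2OS mean values were -0.06 and -0.02, so their place among the 9 early members depends on the window size. The EGFR run of the U2OS mean profile, 0.5 Mb, was narrower than on any single U2OS array. Over gene means, 3 of 10 members and 1507 of 8248 genes had opposite signs.

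**Figure D3:**
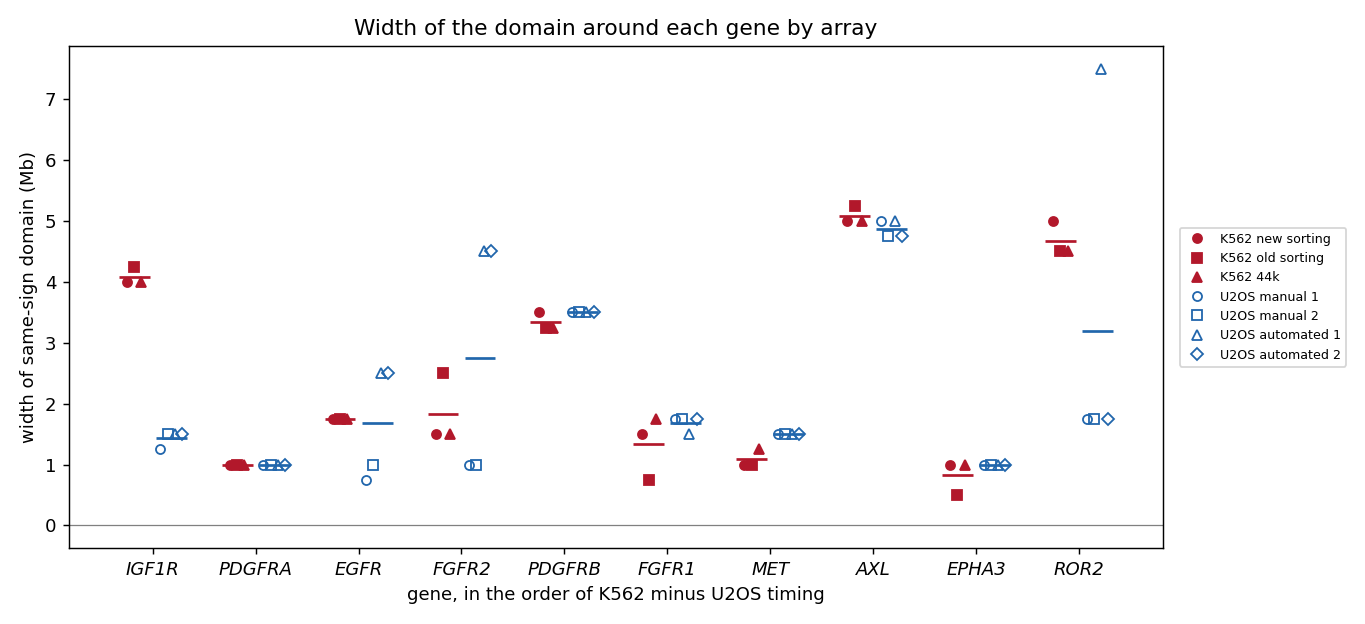
Width in Mb of the run of same-sign 250-kb windows around each gene (vertical axis) on each array, with genes in the same order as in the plot of timing by array and bars at the mean of each line (3 K562 and 4 U2OS arrays). The K562 points of IGF1R lie at 4.0 to 4.25 Mb above the U2OS points at 1.25 to 1.5 Mb, and 1 U2OS array of ROR2 stands apart at 7.5 Mb.

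Of the 18 windows that hold member probes 17 had a value, and 8 of these were called, 7 as later and 1 as earlier in K562, against 23.3% of all windows tested (12.4% later, 10.9% earlier). Of the nearest tested genes, some passed and others did not. Beside IGF1R, FAM169B (-3.07 ± 0.27, SE, limma adjusted p = 1.37e-05) and TTC23 (-1.97 ± 0.30, adjusted p = 0.000321) were later in K562 as well. Beside PDGFRA, the transcript ENST00000507166, 13.5 kb before its first probe, was later in K562 (-1.64, adjusted p = 0.000667). Beside FGFR2, ATE1 differed by -0.73 (adjusted p = 0.0899). On the other side of FGFR2, PPAPDC1A was later in K562 (-2.86, limma adjusted p = 4.19e-05). It lay 892.4 kb before the first FGFR2 probe, inside the run of called windows. Beside EGFR, LANCL2 differed by 0.07 (adjusted p = 0.891), 160.2 kb past the last EGFR probe. Beside ROR2, the transcript ENST00000375715, 12.1 kb before its first probe, was earlier in K562 (1.05, adjusted p = 0.00851). On the other side of ROR2, 91.8 kb past its last probe, SPTLC1 differed by -0.16 (adjusted p = 0.722) and was early in both lines. The neighbours of MET (CAV1 and CAPZA2), AXL (CYP2B6 and HNRNPUL1), PDGFRB (CSF1R and CAMK2A) and FGFR1 (LETM2 and TACC1) did not pass, as their members did not.

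PDGFRA is the first of a cluster of 3 receptor kinase genes on chromosome 4, followed by KIT, the stem cell factor receptor of blood progenitors, and KDR, a receptor for vascular endothelial growth factor. Across this cluster the sign of the difference turned. KIT, 367.7 kb past PDGFRA, averaged -0.23 (SD 0.10, 3 K562 arrays) against -1.31 (SD 0.21, 4 U2OS arrays), and was earlier in K562 by 1.08 ± 0.26 (SE, limma adjusted p = 0.00835). KDR read 0.99 ± 0.10 in K562 and -1.36 ± 0.30 in U2OS, earlier in K562 by 2.35 ± 0.27 (SE, limma adjusted p = 5.53e-05). In U2OS the order was thus PDGFRA early, KIT and KDR late, and in K562 PDGFRA late and KDR early with KIT just below 0. PDGFRB forms a pair with CSF1R, the receptor for macrophage colony-stimulating factor, which lies 13.2 kb away. CSF1R was early in both lines, with a difference of -0.20 (adjusted p = 0.700).

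Beyond the 10, the gene lists held other receptor kinases, ligands, and adaptors or inhibitors. Of 48 other receptor tyrosine kinases 36 were tested and 8 were called, 4 earlier and 4 later in K562 (22.2%, against 21.0% of all genes), with a median difference of -0.10. The largest differences toward later in K562 were ROR1 (-3.01), the closest relative of ROR2, ROS1 (-2.54) and ALK (-1.79). Those toward earlier were KDR, the VEGF receptor FLT1 (1.72) and FLT3 (1.64), a receptor of blood progenitors. ROR1 read -2.92, -2.10 and -1.84 in K562 and 0.56, 1.03, 0.7 and 0.59 in U2OS, so ROR1 was later and ROR2 earlier in K562. Of 34 ligands 19 were tested and 7 called (36.8%), 3 earlier and 4 later. WNT5A, the ligand of ROR2, was later in K562 (-1.79, limma adjusted p = 0.00275), as were PDGFC (-1.57, adjusted p = 0.0258) and FGF1 (-1.19, adjusted p = 0.0153). IGF1 was earlier (1.67, adjusted p = 0.000391), the opposite direction to its receptor, as were PROS1 (1.36) and EGF (1.30). Of 25 adaptors and inhibitors 20 were tested and 1 was called, PIK3R1, a regulatory subunit of PI3-kinase, earlier in K562 by 1.77 (adjusted p = 0.000767).

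The summed brightness of a probe is a second readout of the same spots that the ratio does not use. Total signal was taken as the mean of log2 Cy3 and log2 Cy5 signal per gene, relative to the array median, on the 6 arrays of the larger design. By the same rule 9.53% of genes were called, 4.55% as brighter and 4.99% as dimmer in K562, and of the 10 receptors MET was. MET read 0.98 and 0.76 in K562 and -0.48, -0.39, -0.23 and -0.28 in U2OS. Its total signal was higher in K562 by 1.21 ± 0.20 (SE, limma adjusted p = 0.00976), although its timing did not pass. With either K562 array left out MET no longer passed (1.11, adjusted p = 0.0572, without new sorting; 1.32, adjusted p = 0.0802, without old sorting).

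PDGFRA had the highest total signal of the 10 in U2OS, at 2.53 and 2.81 (manual) and 0.95 and 0.87 (automated), against -0.03 and 0.41 in K562. The manual arrays lay farther from the automated arrays than these did from K562, and the difference between the lines did not pass (-1.6 ± 0.56, SE, limma adjusted p = 0.0827). Its timing was 1.55 and 1.70 (manual) and 1.51 and 1.37 (automated). The manual arrays were thus higher here too, but the automated minus manual gap was only -0.19. EPHA3 was dim in K562 (-1.69 and -1.53) beside U2OS (-0.31 to -1.07), with a difference of -0.91 (adjusted p = 0.0411) that was below the required size of 1 and that reached -1.03 (adjusted p = 0.0451) without the first automated array. FGFR2 differed by -0.74 (adjusted p = 0.0557), and the other members by -0.28 to 0.33. The part of total signal in the timing differences was not tested.

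**Figure D4:**
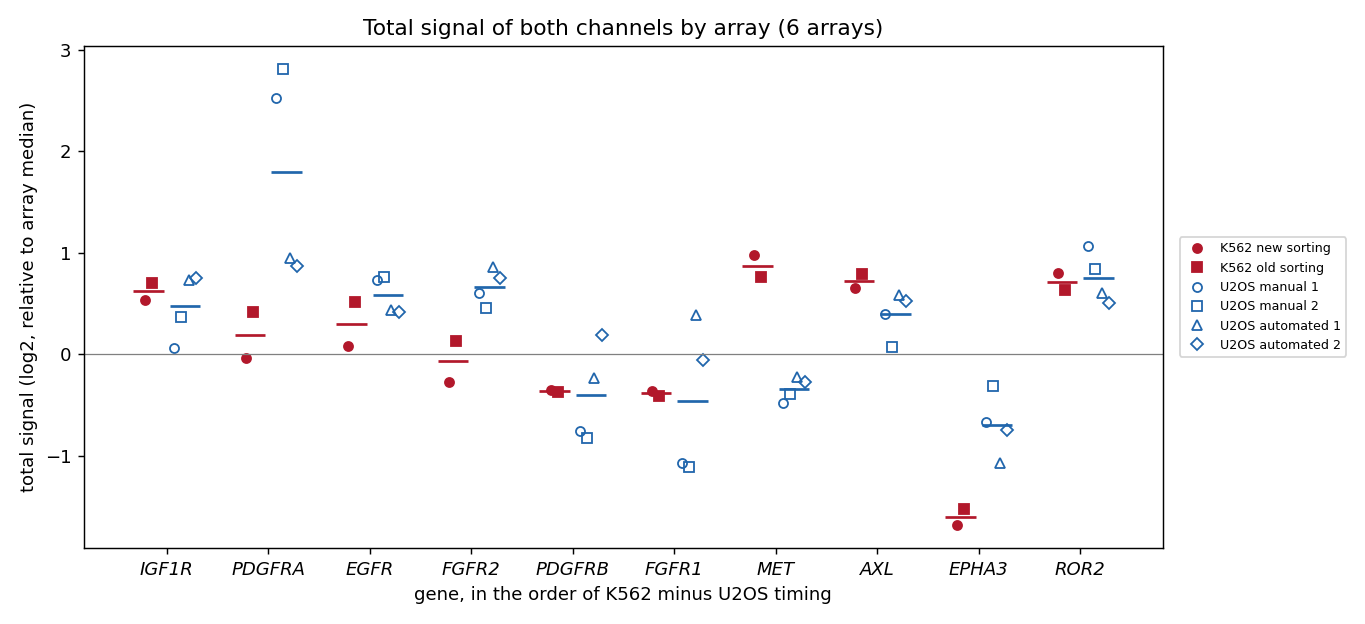
Total signal of both channels for each gene (mean of log2 Cy3 and log2 Cy5, relative to the array median, vertical axis) on the 6 arrays of the larger design, with genes in the order of the timing difference and bars at the mean of each line (2 K562 and 4 U2OS arrays). MET is brighter on both K562 arrays than on any U2OS array, and PDGFRA is brightest on the 2 manual U2OS arrays, at 2.53 and 2.81.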

How the data were processed

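Replication timing was read from 7 two-colour Agilent arrays. Per the file headers, the deposited tables were written by Agilent Feature Extraction 11.5.1.1 on hg19. The deposited intensity of each channel was given per the file headers as raw mean signal, local background and a background-subtracted, dye-normalized signal. The tables also hold a log10 ratio of late over early of the last of these. The authors' deposited log10 ratio was turned to log2(early/late) and centred on each array's median over chromosomes 1 to 22 and X, without loess. Saturated, non-uniform and manually excluded spots were dropped and repeated probes averaged. Genes with at least 2 probes, and 250-kb windows with at least 3, on every array were tested with limma 3.58.1 (R 4.3.3; lmFit, eBayes) over all 7 arrays, and total signal on 6. The scripts were tested on simulated data. A shift of 1 log2 unit was recovered in 0% of the shifted genes and windows. A shift of 2 was recovered in 82.5% of genes and 81.5% of windows. The rule can therefore miss differences near its minimum size. In the simulation 200 of 8248 genes and 200 of 8913 windows were shifted, while 21.0% of genes were called in the data. The adjusted p depends on that share, so these rates need not hold for the data. Widths came from runs of same-sign windows, bridging 1 window without a value. Tables and figures used Python 3.11.15, pandas 2.3.3 and matplotlib 3.10.9. The number of arrays limits the precision.

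The members and the lists of kinases, ligands and adaptors were chosen with earlier results of these data known. Named were all members, their nearest tested neighbours, KIT, KDR and CSF1R, and the 3 called genes with the largest difference in each direction per list. COBL, CGGBP1 and PROS1, the nearest tested genes before EGFR, before EPHA3 and after EPHA3, lie 3728.7, 979.7 and 4068.5 kb away. They are not described as neighbours, although all of them were called. COBL was later in K562 (-1.26), and CGGBP1 (2.11) and PROS1 (1.36) were earlier. Untested transcripts were left out.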

Additional observations from a re-analysis of the deposited data

Results flagged for a closer look

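In 3 of 30 groups of the 4 U2OS arrays that were looked at (timing, width and total signal of each gene), 1 array stood apart from the other 3; chance gives about 1 in 20 for values without ties. All 3 are widths, which move in steps of 250 kb and were equal on the other 3 arrays, so that any step sets an array apart and this rate does not hold for them. The ROR2 domain was 7.5 Mb wide on the first automated U2OS array against 1.75 Mb on the others. The FGFR1 domain was 1.5 Mb on that same array against 1.75 Mb, and the IGF1R domain was 1.25 Mb on the first manual array against 1.5 Mb. The FGFR1 and IGF1R gaps are 1 window wide, the smallest step that this measure can take.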

How the results depend on the processing

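No result changed direction past a threshold in any alternative, and IGF1R and PDGFRA stayed called in all in which they were tested (21 and 19). The differences of MET (-0.25 to 0.47), FGFR1 (-0.45 to 0.32) and PDGFRB (-0.78 to 0.09), never called, took either sign. The counts moved with the processing, and the cause was not tested except where fewer or more features or arrays entered. Against 1730 genes, 914 were called with normexp and an offset of 50 (345 earlier and 569 later in K562, against 842 and 888), 496 without background correction, 74 of 455 without dim probes, 703 of 2573 with at least 4 probes and 1091 against the manual U2OS arrays alone. Against 2079 windows (972 earlier, 1107 later), 1166 were called with that offset (380 and 786), 601 without background correction, 33 of 209 without dim probes (8 and 25), 1121 of 5510 at 500 kb, 1372 of 6022 with at least 5 probes and 5076 of 24160 at 100 kb on 6 arrays. Leaving out 1 array gave 1514 to 2867 genes (the highest without the array labelled 44k, when 15763 genes could be tested), 1875 to 2320 windows (1328 earlier and 992 later without the K562 array after new sorting), 4 to 5 members, 3 to 4 members with a wider domain in K562 and 0 to 2 members for total signal. Without the K562 array after new sorting the members called were 2 earlier and 2 later, against 1 and 4 with all arrays. Members called were 2 without background correction (EGFR -0.79, FGFR2 -0.89 and ROR2 0.66 lost) and 1 of 1 that could be tested without dim probes. Members with a wider domain were 2 with normexp and an offset of 50, 2 without background correction and 2 in 100-kb windows. Loess moved the median difference of all genes from -0.14 to -0.28. The comparisons against manual or automated arrays alone, the averaging of the 2 arrays of 1 slide and the leave-outs for total signal were chosen after seeing the data. A random block for slide could not be fitted, because only 1 slide held more than 1 array, and the domain count without dim probes gave no value. No paired analysis was possible because the labels give the lines no shared replicate numbers.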
